A study of Mus musculus with 56 samples.

Results

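The 9 genes described here are Nfe2l2, which encodes the transcription factor NRF2, and 8 genes of antioxidant defence that are known or frequently listed as its targets: Gclc, Gclm, Nqo1, Txnrd1, Srxn1, Gpx3, Prdx6 and Sod2. They were chosen by gene symbol and are 9 of 22864 genes in the heart data. PolyA RNA was sequenced from hearts of female C57BL/6J mice, an inbred strain, at 9 weeks of age. Mice on chow under a cycle of 12 h light and 12 h dark were fed for 7 days only in the light phase (daytime-restricted feeding, DRF) or only in the dark phase (nighttime-restricted feeding, NRF, the control). Hearts were taken every 4 h over a day, at 7 zeitgeber times (ZT, counted in hours from lights on) from ZT0 to ZT24. Each regimen had 4 libraries per ZT, which makes 14 groups and 56 libraries. The comparison asked whether the daily time course of each gene differed between the regimens. The regimen NRF and the factor NRF2 share letters only, and the factor is called NFE2L2 from here on.

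NFE2L2 is held low by KEAP1, which presents it for degradation, and it builds up when electrophiles or oxidants modify KEAP1. It then pairs with small MAF proteins on antioxidant response elements and raises genes that make glutathione, reduce thioredoxin and detoxify quinones. Much of its control is on the protein, so the level of its mRNA does not report its activity.

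All 9 are protein-coding genes (GENCODE M21, GRCm38). Nfe2l2 lies at chr2:75675513-75704641 (-), Gclc at chr9:77754535-77794485 (+) and Gclm at chr3:122245557-122270732 (+). Nqo1 lies at chr8:107388225-107403206 (-), Txnrd1 at chr10:82833951-82897712 (+) and Srxn1 at chr2:152105516-152111376 (+). Gpx3 lies at chr11:54902453-54910377 (+), Prdx6 at chr1:161240112-161251219 (-) and Sod2 at chr17:13006846-13040063 (+). Reads were counted over all exons of a gene, so its transcript forms were not told apart.

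The deposited values were converted back to reads, and levels are given as TPM, reads per base of gene length scaled to 1 fixed sum per library. Gene length is that of all annotated exons together, for example 10008 bases for Sod2 and 1553 for Nqo1. Where the transcripts present are shorter than this, TPM is too low, so levels of different genes compare only roughly. Libraries held 29.27 to 52.91 M reads with a median of 37.32 M. All 9 genes passed the filter on low values (a mean of at least 1 TPM), as did 13893 genes in all. The lowest member, Gclc, had 473 to 889 reads in a library. Cardiomyocyte markers summed to 23097 to 36968 TPM in every library, as the label heart implies, and atrial markers ranged from 4.73 to 2478 TPM between libraries. Over genes that differed in rhythm, 46 of 56 libraries lay nearest to the mean of their own group and 8 nearest to another ZT of the same regimen. The library labelled DRF ZT4 replicate 1 lay nearest to NRF ZT8 (distance 0.649 against 1.4 to its own group), and the library labelled NRF ZT8 replicate 1 lay nearest to DRF ZT4 (0.785 against 1.57). Each thus lay nearest to the group of the other, and whether the 2 labels were exchanged was not tested. Both were kept under their labels, so the values printed for replicate 1 at DRF ZT4 and at NRF ZT8 are those of libraries that may carry each other's label. Nqo1, for example, was at 79.1 TPM in DRF ZT4 replicate 1 and at 46.6 to 59.4 TPM in the other 3 DRF ZT4 libraries, while the NRF ZT8 libraries other than replicate 1 were at 67.0 to 80.0 TPM. Counts of calls without both libraries are given with the other settings. Nothing in the labels says that replicates are separate animals, so p-values measure the spread between these libraries.

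The 9 genes differed widely in level. Gpx3, a secreted glutathione peroxidase, was the highest, with 445 ± 128 TPM under NRF and 471 ± 146 TPM under DRF (mean ± SD, n = 28 libraries each, as for the values that follow). Sod2, the manganese superoxide dismutase of mitochondria, followed with 130 ± 8.0 and 130 ± 9.27 TPM, and Prdx6, a peroxiredoxin that also acts on phospholipids, with 83.2 ± 6.69 and 77.7 ± 4.92 TPM. Nqo1, a quinone reductase, stood at 61.8 ± 9.91 and 53.3 ± 9.25 TPM, and Nfe2l2 at 44.8 ± 7.43 and 43.7 ± 4.99 TPM. Srxn1, the sulfiredoxin that repairs over-oxidised peroxiredoxins, and Txnrd1, the cytosolic thioredoxin reductase, were close together, with 22.0 ± 2.8 and 21.6 TPM ± 1.96 under NRF and 20.2 ± 3.11 and 20.1 ± 2.35 TPM under DRF. Gclm and Gclc, the modifier and catalytic subunits of the enzyme that limits glutathione synthesis, were the lowest, with 11.2 ± 2.27 and 10.2 ± 1.07 TPM under NRF and 11.6 ± 2.42 and 10.3 ± 1.45 TPM under DRF. Srxn1 and Txnrd1, and likewise Gclm and Gclc, lay within each other's spread.

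**Figure D1:**
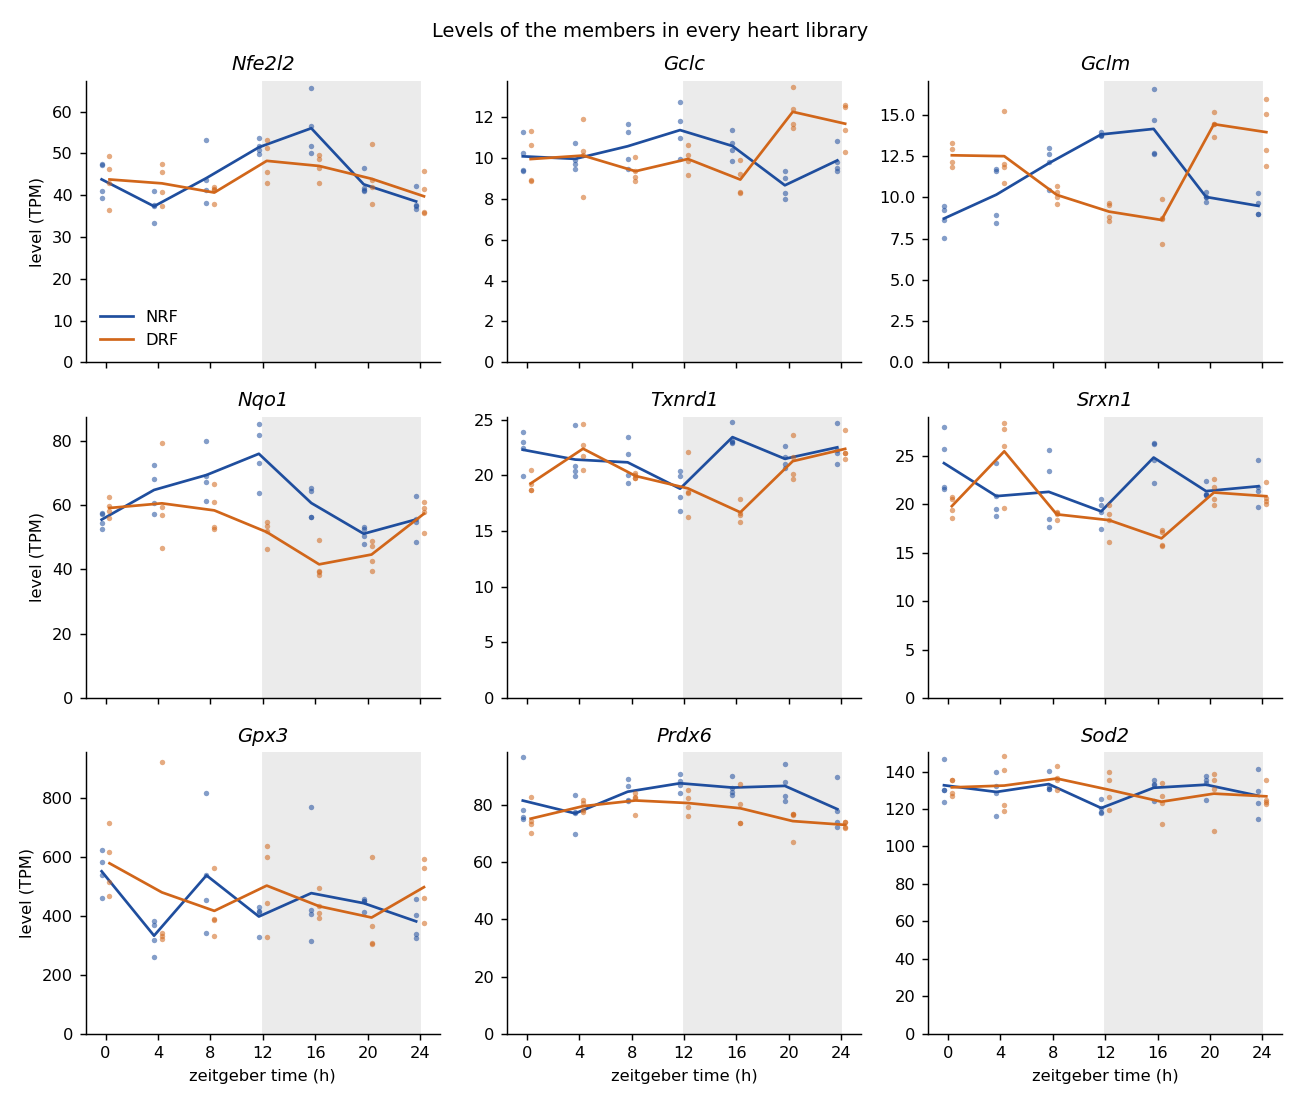
Level in TPM (vertical axis, from 0) against zeitgeber time in hours (horizontal axis) for each gene. Points are the 4 libraries of a group, lines join group means, blue is NRF, orange is DRF and the shaded span is the dark phase. The Gclm lines cross, with NRF highest at ZT16 (14.2 TPM) and DRF highest at ZT20 (14.4 TPM), whereas the Sod2 lines stay close together.

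A 24 h rhythm was fitted to log2(TPM + 1) in each regimen with limma, and a gene was called at a Benjamini-Hochberg adjusted p under 0.05 over all 13893 genes tested. Under NRF 5 of the 9 genes were rhythmic (Nfe2l2, Gclc, Gclm, Nqo1 and Prdx6), against 37.2% of all genes tested. This count was 3 without the library NRF ZT12 replicate 1 or without NRF ZT12 replicate 3. Under DRF 5 were rhythmic (Gclm, Nqo1, Txnrd1, Srxn1 and Prdx6), against 32.2%. The rhythm differed between the regimens in clock time for 4 (Gclm, Gclc, Nqo1 and Srxn1), against 27.5%. With NRF times moved by 12 h, so that feeding windows line up, it differed for 5 (Nfe2l2, Nqo1, Txnrd1, Srxn1 and Prdx6), against 41.3%. The food time call of Srxn1 was lost without all libraries of replicate 2 or 3 and with ZT12 left out (adjusted p = 0.0998, 0.0711 and 0.214), that of Txnrd1 with ZT12 left out (0.0731) and that of Prdx6 without all libraries of replicate 1 or 4 (0.0651 and 0.0661). The counts of the 9 genes are small and none was tested against these background shares.

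Gclm had the clearest change. Under NRF its 4 libraries were at 7.52, 9.5, 8.62 and 9.24 TPM at ZT0 and at 16.6, 14.7, 12.7 and 12.7 TPM at ZT16. Under DRF they were at 13.3, 13.0, 11.8 and 12.1 TPM at ZT0 and at 9.91, 8.69, 8.78 and 7.17 TPM at ZT16. The order of the regimens was thus opposite at these times, with no overlap between groups at either. The fitted peak was at ZT12.7 (SE 0.486 h) under NRF and at ZT0.0582 (SE 0.614 h) under DRF, a shift of 11.3 h (SE 0.783 h), and the amplitudes were 0.30 (SE 0.03) and 0.30 (SE 0.04) log2. The rhythms differed in clock time (limma adjusted p = 3.86e-11) and did not pass the test in food time (adjusted p = 0.758), a result that does not show the rhythms to be equal. Gclm carries 296 exonic bases opposite the gene Gm17494, listed at 0.0834 TPM, and 244 shared with the pseudogene Gm6061, and the use of strand in counting is not given in the sources used here.

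Gclc, the catalytic partner of Gclm, differed between the regimens at 1 time, ZT20, and its ZT0 means of 9.95 TPM under DRF and 10.1 TPM under NRF were close. At ZT24, the same clock time as ZT0, its means were 11.7 TPM under DRF and 9.88 TPM under NRF. The groups overlapped there, and the difference did not pass (limma adjusted p = 0.0936). At ZT20 the NRF libraries were at 9.03, 9.35, 8.01 and 8.27 TPM and the DRF libraries at 11.5, 11.7, 12.4 and 13.5 TPM, so all DRF libraries were above all NRF libraries. The fitted peak was at ZT10.1 (SE 1.22 h) under NRF (adjusted p = 0.0276) and at ZT22.1 (SE 1.40 h) under DRF, where the rhythm missed the threshold (adjusted p = 0.0638). The rhythms differed in clock time (limma adjusted p = 0.00276) with fitted peaks 11.9 h apart (SE 1.85 h), and the food time test gave an adjusted p of 0.959. The call was lost without all libraries of replicate 3 (adjusted p = 0.103). The NRF rhythm was lost in 8 of 76 other settings, among them without NRF ZT8 replicate 3, NRF ZT12 replicate 1 or NRF ZT12 replicate 3 (adjusted p = 0.054, 0.0573 and 0.0686), and the DRF rhythm was called in 10, among them without DRF ZT0 replicate 2 or 4, DRF ZT4 replicate 4 or DRF ZT12 replicate 2 (adjusted p = 0.0315, 0.0323, 0.0466 and 0.0448).

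Nqo1 changed in phase and in level. At ZT12 the NRF libraries were at 85.1, 73.1, 81.6 and 63.8 TPM and the DRF libraries at 51.9, 54.6, 46.3 and 53.5 TPM. At ZT16 they were at 56.3, 56.4, 64.3 and 65.4 TPM and at 49.1, 39.5, 38.3 and 39.3 TPM. DRF was below NRF without overlap at both times. The fitted peak came at ZT9.5 (SE 0.567 h) under NRF and at ZT4.6 (SE 0.58 h) under DRF, 4.9 h earlier (SE 0.811 h), and the rhythms differed in clock time (limma adjusted p = 7.08e-05) and in food time (limma adjusted p = 9.19e-07).

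Srxn1 and Txnrd1, both of the thioredoxin and peroxiredoxin cycle, had at ZT16 their lowest mean under DRF and their highest under NRF. ZT16 was also the time of the lowest DRF mean for Gclm, Gclc, Nqo1 and Sod2 (8.64, 8.94, 41.5 and 124 TPM). The share of all genes tested with their lowest DRF mean at ZT16 was not counted, so this is not a trait of these genes. Over all genes tested 4475 were rhythmic under DRF, and 2567 with ZT16 left out. Gclc and Sod2 did not pass the test between regimens at ZT16 (limma adjusted p = 0.0924 and 0.46). At ZT16 Srxn1 was at 26.3, 22.2, 26.2 and 24.5 TPM under NRF and at 17.3, 17.1, 15.7 and 15.8 TPM under DRF. Txnrd1 was at 22.9, 23.0, 23.0 and 24.8 TPM under NRF and at 17.9, 16.6, 16.5 and 15.8 TPM under DRF. For both genes all DRF libraries were below all NRF libraries at this time. Under DRF both were rhythmic, with peaks at ZT2.8 (SE 0.852 h, adjusted p = 0.0033) and ZT2.6 (SE 0.924 h, adjusted p = 0.00591), and under NRF neither passed the test (adjusted p = 0.231 and 0.134). That of Txnrd1 passed in 3 of 76 other settings, with median-of-ratios rescaling (adjusted p = 0.0244), with voom (0.0263) and with ZT16 left out (0.0372). Both DRF rhythms were lost with ZT16 left out (adjusted p = 0.114 for Srxn1 and 0.206 for Txnrd1), and that of Txnrd1 also without all libraries of replicate 2 or 3 (adjusted p = 0.0545 and 0.0655). The difference in rhythm passed for Srxn1 (limma adjusted p = 0.0228) and not for Txnrd1 (0.0668). For Srxn1 it was lost in 8 of 76 other settings. These were without NRF ZT16 replicate 3 (adjusted p = 0.0503), without all libraries of replicate 2, 3 or 4 (0.124, 0.269 and 0.0534), with median-of-ratios rescaling (0.0829), on deposited values times length (0.133) and with ZT4 or ZT16 left out (0.375 and 0.727). For Txnrd1 it was reached in 11 of 76, among them without the 2 libraries that lay nearest to the other regimen (adjusted p = 0.0461), and also without DRF ZT12 replicate 4, DRF ZT20 replicate 3, DRF ZT20 replicate 4, NRF ZT4 replicate 4, NRF ZT8 replicate 4 or NRF ZT12 replicate 2 (adjusted p = 0.0342, 0.0496, 0.0277, 0.0353, 0.0411 and 0.0365).

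Nfe2l2 itself was rhythmic under NRF, with its highest level in the dark phase, and its rhythm under DRF was not called. Under NRF its libraries were at 33.4, 37.7, 37.4 and 40.9 TPM at ZT4 and at 50.1, 65.7, 51.8 and 56.5 TPM at ZT16, and under DRF at 37.3, 47.5, 45.7 and 40.8 TPM and at 46.6, 49.6, 48.7 and 43.0 TPM. The NRF groups did not overlap between these times, while the DRF groups did. The peak was at ZT14.6 (SE 0.614 h) under NRF (adjusted p = 5.56e-05) and the fit under DRF, not called (adjusted p = 0.112), placed it at ZT14.8 (SE 1.5 h). The amplitude was 0.24 (SE 0.04) log2 under NRF and 0.10 (SE 0.04) log2 under DRF, and the difference in clock time missed the threshold (limma adjusted p = 0.11), while the food time test passed (limma adjusted p = 6.75e-06). The DRF rhythm was called in 4 of 76 other settings: with median-of-ratios rescaling (adjusted p = 0.00439), without mitochondrially encoded genes (0.0377), on deposited values times length (0.0225) and with voom (0.0299).

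Prdx6 was rhythmic in both regimens with small amplitudes, 0.09 (SE 0.03) log2 under NRF with a peak at ZT14.7 (adjusted p = 0.0418) and 0.08 (SE 0.02) log2 under DRF with a peak at ZT9.7 (adjusted p = 0.0214). Its NRF rhythm was lost in 25 of 76 other settings and its DRF rhythm in 9. The difference in clock time did not pass (limma adjusted p = 0.1), passing without DRF ZT16 replicate 1 (adjusted p = 0.0468). The annotation also holds a gene named Prdx6b and a pseudogene Prdx6-ps2. Their sequences were not compared with Prdx6, so its values are uncertain if they share reads. Gpx3 and Sod2 passed none of these tests, with adjusted p of 0.841 and 0.691 under NRF and 0.807 and 0.327 under DRF. Of the 9 genes Gpx3 had the widest spread within a group, from 322 to 920 TPM at DRF ZT4.

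**Figure D2:**
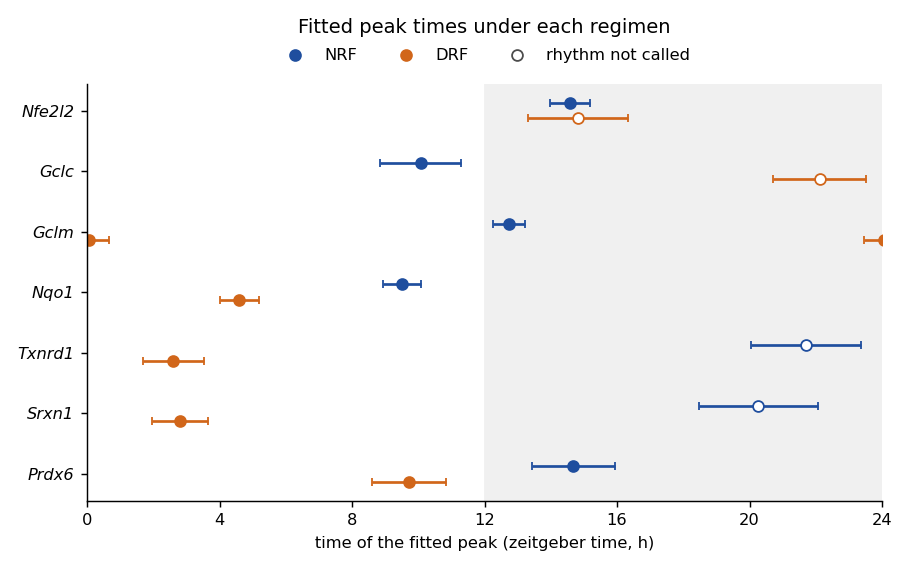
Fitted peak time (horizontal axis, zeitgeber time in hours) of the 7 genes rhythmic in at least 1 regimen. Blue is NRF, orange is DRF, bars are 1 SE, open symbols mark rhythms not called and the shaded span is the dark phase. The Gclm DRF peak lies at the edge and appears at both ends, opposite its NRF peak at ZT12.7, whereas the fitted Nfe2l2 peaks lie at ZT14.6 under NRF and, not called, at ZT14.8 under DRF.

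At single times, 6 of the 9 genes differed between regimens at 1 ZT or more, against 32.9% of all genes tested. At ZT0 Gclm was higher under DRF by 0.48 log2 (SE 0.09, limma adjusted p = 0.000389) and Srxn1 lower by 0.27 (adjusted p = 0.0489), 2 genes against 11.5% of all genes tested. The Srxn1 call at ZT0 was lost in 51 of 74 other settings, among them with the replicate number as a block (-0.27, adjusted p = 0.0575). At ZT24, the same clock time, Srxn1 differed by -0.06 log2 and did not pass (limma adjusted p = 0.723). At ZT4 and ZT8 none of the 9 passed, against 0.446% and 0.353%. These times hold the 2 libraries that lay nearest to the other regimen, and without both of them 3.45% and 3.6% of all genes tested were called. Of the 9 genes Srxn1 then passed at ZT4, higher under DRF by 0.38 log2 (SE 0.08, limma adjusted p = 0.00447) against 0.27 (SE 0.09, adjusted p = 0.203) with all libraries, and none passed at ZT8. At ZT4 Srxn1 was at 19.6 TPM in DRF replicate 1, within the NRF libraries at 18.8 to 24.2 TPM, and at 26.0 to 28.4 TPM in the other 3 DRF libraries. At ZT12 Gclm fell by 0.55 and Nqo1 fell by 0.54 (adjusted p = 0.000408 and 0.00111), against 7.62%. At ZT16 Gclm, Srxn1, Nqo1 and Txnrd1 were all lower under DRF, by 0.65, 0.56, 0.54 and 0.47 log2 (adjusted p = 4.78e-05, 0.000373, 0.00183 and 0.000107), 4 of 9 against 6.87%. At ZT20 Gclm and Gclc were higher by 0.48 and 0.46 (adjusted p = 0.000456 and 0.000288) and Prdx6 fell by 0.22 (adjusted p = 0.0209), against 14.9%. At ZT24 Gclm alone of the 9 passed, higher by 0.51 (adjusted p = 0.000393), against 8.8%. The Prdx6 call was lost in 8 of 74 other settings. Under 2 of them, median-of-ratios rescaling and mitochondrially encoded genes left out, the difference was -0.15 and -0.10 (adjusted p = 0.102 and 0.28). The other 6 were without DRF ZT20 replicate 2, NRF ZT20 replicate 1 or NRF ZT20 replicate 3 (adjusted p = 0.101, 0.0563 and 0.0937) and without all libraries of replicate 1, 2 or 3 (0.0989, 0.115 and 0.0823). The Prdx6 call at ZT20 and the Srxn1 call at ZT0 were also lost on deposited values times length (adjusted p = 0.454 and 0.077), where Gclc was called at ZT24 (0.0329). Both Nqo1 calls were lost without replicate 3 (adjusted p = 0.122 and 0.0798).

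**Figure D3:**
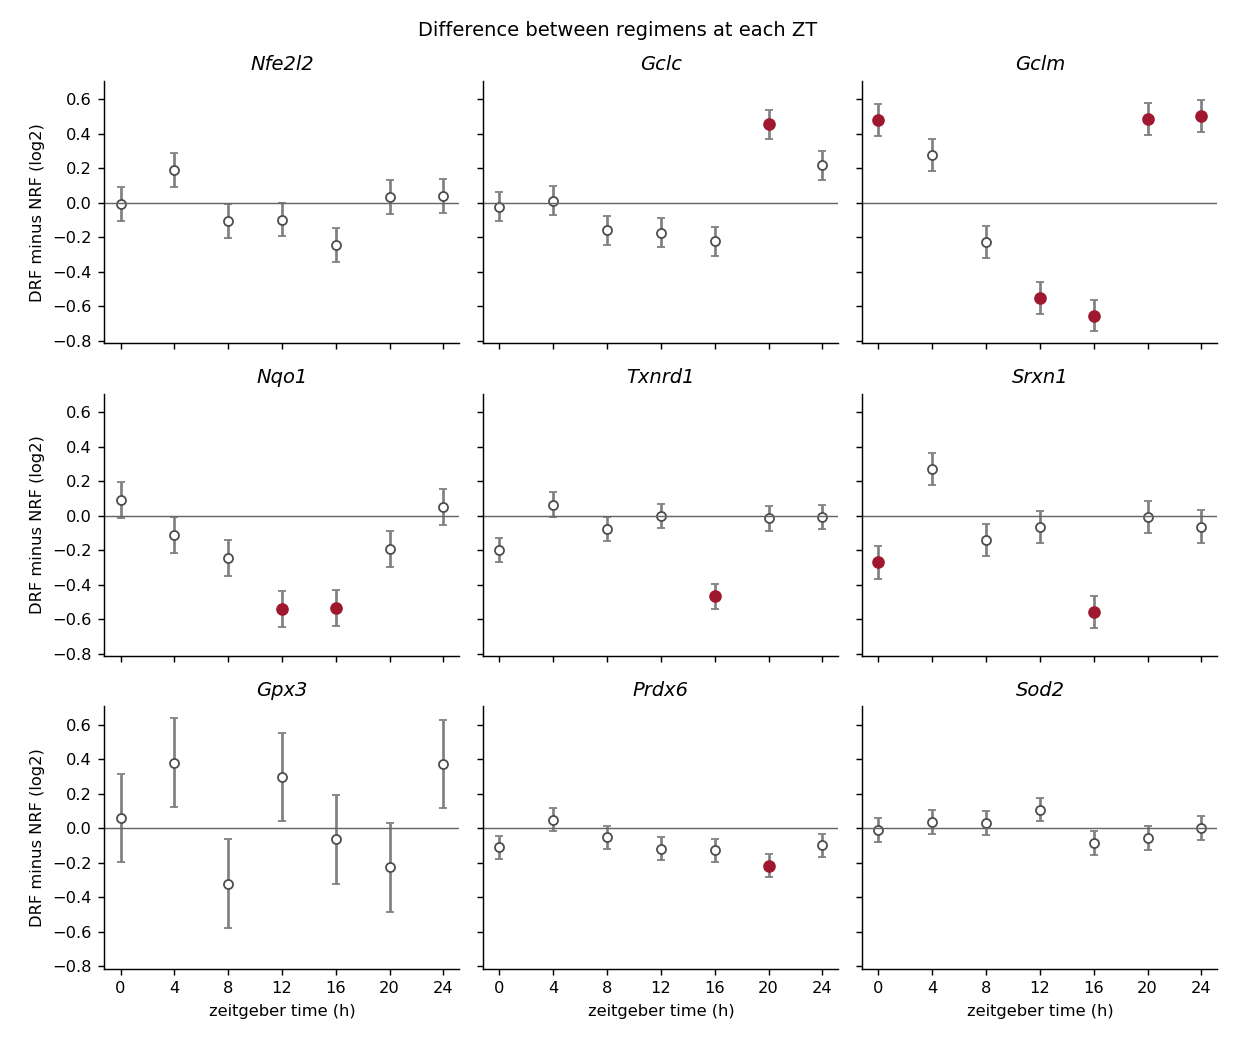
Difference DRF minus NRF on log2(TPM + 1) (vertical axis) at each zeitgeber time in hours (horizontal axis), with bars of 1 SE. Filled red points passed the test and open points did not. Gclm is above 0 at ZT0, ZT20 and ZT24 and below 0 at ZT12 and ZT16, and 4 genes passed the test below 0 at ZT16.

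In mean level over the day, 4 of the 9 genes were lower under DRF, against 24.3% of all genes tested, and none was higher, against 1.67%. This level is the regimen term of a model with 1 mean per ZT and regimen terms for the 24 h cosine and sine. Its sign can differ from that of the means over 28 libraries. Gclm and Gclc, not called, were at -0.04 and -0.01 log2, though their 28-library means were slightly higher under DRF. Nqo1 fell by 0.26 log2 (SE 0.04, limma adjusted p = 1.94e-05), Srxn1 fell by 0.13 (SE 0.04, adjusted p = 0.021), Txnrd1 fell by 0.11 (SE 0.03, adjusted p = 0.0146) and Prdx6 fell by 0.10 (SE 0.03, adjusted p = 0.00456). The median over all genes was itself -0.05 log2. Of all genes 232 were higher and 3376 lower, a split that became 766 and 1043 with median-of-ratios rescaling, and under that scaling Nqo1 alone of the 4 kept its call. The calls of Srxn1, Txnrd1 and Prdx6 were lost in 8, 8 and 4 of the 75 other settings that keep this scale, and all 3 also on deposited values times length (adjusted p = 0.154, 0.127 and 0.0937), where Nqo1 was the 1 gene called. Leaving out all libraries of 1 replicate number ended the call of Srxn1 for numbers 1 and 3, of Txnrd1 for 1, 2 and 3 and of Prdx6 for 2. Mitochondrially encoded genes took 21.8 ± 1.47% of reads under DRF and 20.5 ± 1.57% under NRF, and with these genes left out Nqo1 was again the 1 gene called. All 5 endothelial markers, 3 of 5 fibroblast, 3 of 5 smooth muscle and pericyte and 3 of 5 leukocyte markers were lower under DRF. The summed endothelial level was 428 to 817 TPM over both regimens, with medians of 521 under DRF and 586 under NRF, and the atrial sum had medians of 893 and 274 TPM. The part of these markers in the result was not tested, and in bulk tissue fewer cells of a type and less RNA per cell cannot be told apart.

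**Figure D4:**
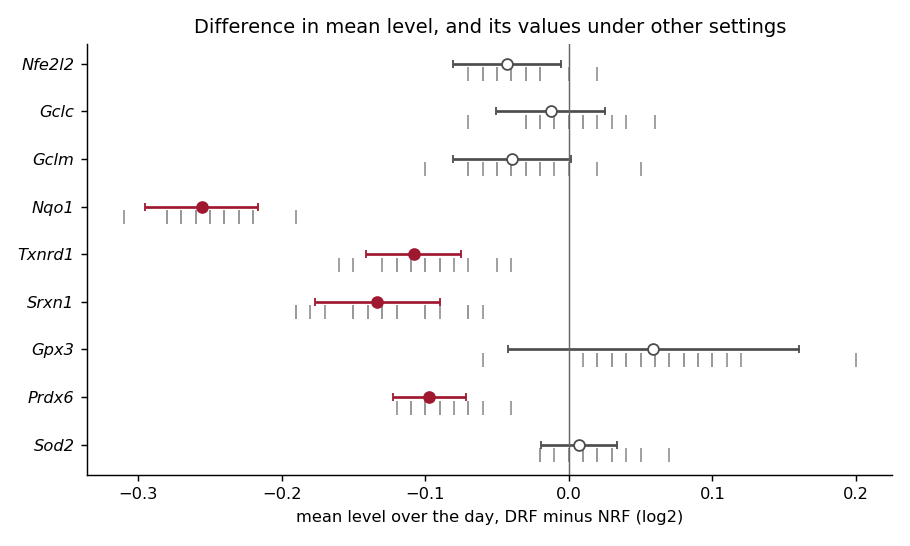
Difference in mean level over the day, DRF minus NRF on log2(TPM + 1) (horizontal axis), with bars of 1 SE. Red filled points passed the test, open points did not, and grey ticks are the values under other settings. Every tick of Nqo1 lies below 0, from -0.31 to -0.19, while those of Gclc lie on both sides of 0.

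Over the 14 group means the patterns of Txnrd1 and Srxn1 were the most alike of the 36 pairs of members (Pearson r = 0.903), followed by Gclc and Gclm (r = 0.763). The correlation of Nfe2l2 with the other 8 genes ran from -0.25 with Txnrd1 to 0.569 with Prdx6. Among all genes tested the most like Nfe2l2 were Max (r = 0.963) and Stk35 (0.924), those most like Gclm were Map7 (0.919) and BC005537 (0.91), and those most like Gclc were Pi4k2a (0.896) and Fastkd3 (0.888). The most like Nqo1 were Egflam (0.968) and Cchcr1 (0.919), and the most like Srxn1 were Gtpbp4 (0.92) and N4bp1 (0.903). These are descriptions over 14 means that share libraries.

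The regulators of the pathway include Sqstm1, the autophagy receptor that binds KEAP1, which peaked at ZT12.5 (SE 0.482 h) under NRF and ZT23.3 (SE 0.319 h) under DRF (limma adjusted p of the difference 5.17e-16). Bach1, which competes with NFE2L2 on its elements, peaked at ZT12.1 and ZT20.1 (adjusted p = 2.44e-05), Mafk, a small MAF partner, differed in rhythm (adjusted p = 0.00148) and so did Nfe2l1, a related factor (adjusted p = 0.00304). In all 7 of 12 regulators differed in rhythm, where 27.5% of all genes tested did. Nfe2l1 and Keap1 were lower in mean level, by 0.12 and 0.10 log2 (adjusted p = 0.000897 and 0.011), 2 of 12, where 24.3% of all genes tested were lower. The median difference of the list was -0.04 log2, beside -0.05 over all genes tested. Of 23 other targets tested of 25 chosen, 9 differed in rhythm: the smallest p were those of Idh1, Gsta3, Txn1 and Ephx1 (adjusted p = 4.82e-05, 0.00446, 0.00995 and 0.0127). The peak of Gsta3, a glutathione transferase, moved by 1.37 h (SE 0.369 h) from ZT17.1. Txn1, Prdx1 and Abcc1 were lower in mean level by 0.12, 0.08 and 0.14 log2 (adjusted p = 0.00468, 0.0111 and 0.0181), 3 of 23 with a list median of -0.04. Of 22 other antioxidant enzymes 8 differed in rhythm, led by Msrb3, Cat, Glrx and Msrb1 (adjusted p = 5.16e-09, 1.52e-08, 0.00118 and 0.00276), and Cat, the catalase, peaked at ZT10.7 under NRF and ZT2.2 under DRF. In mean level 6 of these 22 were lower, among them Msra, Msrb1 and Gpx7 (adjusted p = 0.00178, 0.00805 and 0.00852), and their median was -0.06. No gene of the 3 lists was higher. The counts of the lists were not tested against the shares of all genes, and those of mean level lie near or below that share.

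The promoters of Gclm, Txnrd1 and Srxn1 are shown as those of the gene with the smallest p for a difference in rhythm and of the pair with the most alike patterns. Each is the 250 bases before a RefSeq start (GRCm38.p6), in lower case with matches to the antioxidant response element core TGACNNNGC, searched on both strands, in capitals. The Gclm window is chr3:122245307-122245556 (+), the Txnrd1 window, 1 of 3 starts, is chr10:82858956-82859205 (+), and the Srxn1 window is chr2:152105274-152105523 (+).
Gclm: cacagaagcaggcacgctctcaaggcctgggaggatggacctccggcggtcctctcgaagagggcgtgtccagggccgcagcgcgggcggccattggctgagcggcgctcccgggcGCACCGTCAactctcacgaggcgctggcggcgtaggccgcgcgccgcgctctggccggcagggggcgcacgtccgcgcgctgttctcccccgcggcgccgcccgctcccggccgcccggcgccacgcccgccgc
Txnrd1: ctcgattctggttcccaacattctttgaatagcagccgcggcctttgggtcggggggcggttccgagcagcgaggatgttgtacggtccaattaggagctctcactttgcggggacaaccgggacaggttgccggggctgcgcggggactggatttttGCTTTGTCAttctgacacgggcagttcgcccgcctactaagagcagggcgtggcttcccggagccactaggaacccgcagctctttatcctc
Srxn1: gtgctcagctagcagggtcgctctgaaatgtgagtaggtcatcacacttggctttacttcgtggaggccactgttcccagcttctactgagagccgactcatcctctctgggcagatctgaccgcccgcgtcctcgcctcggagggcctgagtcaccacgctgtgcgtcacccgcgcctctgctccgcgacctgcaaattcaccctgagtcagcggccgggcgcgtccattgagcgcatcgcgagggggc
Gclm and this Txnrd1 start held 1 match each and Srxn1 none. Of the windows not shown, that of Nfe2l2 held 1 match and those of Nqo1, Gpx3 and Sod2 none. The other 2 Txnrd1 starts in the table, not shown, held none. Among all 32851 promoters 10.2% held a match in this window. No window of a member held the E-box CACGTG, which 6.02% of all promoters held. A match is a description of letters and not a binding site, and 7 of the 9 genes had a promoter in the table used, Gclc and Prdx6 being the other 2.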

How the data were processed

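The 56 heart libraries were grouped by the regimen, ZT and replicate in the labels. The authors deposited values named TPM, but the deposited values were not linear. Their steps followed a library constant times log2(1 + scaled reads) divided by gene length. The submitters' processing notes name HISAT2 2.0.5, featureCounts 1.5.0-p3 and build mm10. Reads were recovered from these steps with exon lengths from GENCODE M21 (GRCm38): 99.9996% of 1192378 values under 30000 reads fell within 0.1 of a whole read, 831 lengths were searched for and 5 genes were left out. Linear TPM was recomputed from the reads. The design had assumed linear TPM, and its tests were kept.

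Genes that averaged 1 TPM or more were fitted on log2(TPM + 1) with limma 3.58.1 in R 4.3.3. A 24 h cosine was fitted per regimen, its difference tested with an interaction in clock time and with NRF times moved by 12 h, and mean level and each ZT were tested by contrasts. The scripts were tested on simulated data. Of 100 genes changed 1.5-fold in mean 99% were called, and of 100 with opposite phases 98%. On simulated data for 6000 genes the recovery returned all reads exactly, and 200 altered lengths came within 4.8% of their true value (53.5% were exact). Members and lists were chosen with earlier results of these data known. All 9 members are named. The genes most like a member were named for Nfe2l2 and for members with a different rhythm, and from each list up to 4 genes with the smallest p of a rhythm difference and up to 3 of a mean level difference. In all 76 other settings were run.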

Additional observations from a re-analysis of the deposited data

Results flagged for a closer look

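The rhythm of 4 genes differed between the regimens by the interaction test in limma, with adjusted p of 3.86e-11 for Gclm, 7.08e-05 for Nqo1, 0.00276 for Gclc and 0.0228 for Srxn1.

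In 13 of 126 groups of 4 libraries, 1 library lay far from the other 3, where chance gives about 1 in 20, or 6.3. Under NRF these were Nfe2l2 at ZT20 (46.4 TPM in replicate 1) and ZT24 (42.3 in replicate 2), Txnrd1 at ZT16 (24.8 in replicate 4), Srxn1 at ZT20 (22.4 in replicate 2) and Gpx3 at ZT12 (329 in replicate 4) and ZT20 (413 in replicate 1). Also under NRF were Prdx6 at ZT0 (97 TPM in replicate 3) and Sod2 at ZT8 (140 in replicate 1). Under DRF they were Nfe2l2 at ZT8 (37.9 in replicate 2), Nqo1 at ZT16 (49.1 in replicate 1), Prdx6 at ZT20 (67.2 in replicate 2) and Sod2 at ZT24 (136 in replicate 4). The widest gap was that of Gpx3 at DRF ZT4, with 920 TPM in replicate 2 and 322 to 343 TPM in the other 3 libraries. In the same library erythroid markers summed to 67419 TPM, the highest of the 56, and atrial markers to 2363 TPM, with 2 libraries above it. The part of these in the Gpx3 value was not tested.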

How the results depend on the processing

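The different rhythm of Gclm and Nqo1 kept its call in all 76 other settings. The lower mean of Nqo1 kept its direction and call in the 75 that give a log2 difference, and on deposited values times length it was also called lower (adjusted p = 3.61e-05). The fitted shift of Gclm, close to 12 h, was 11.3 h later and became 10.4 h with median-of-ratios or ZT16 left out and -11.7 h (earlier) with ZT20 left out. The count of genes with a lower mean, 4, became 1 with median-of-ratios rescaling, without mitochondrially encoded genes, on deposited values times length and with ZT8 left out, and 2 with ZT0 or ZT16 left out. The 5 genes rhythmic under NRF became 3 with ZT12 or ZT20 left out, and the 5 different in food time became 3 with ZT12 left out. Without single libraries or whole replicates the counts ranged from 3 to 5 (NRF), 3 to 6 (DRF), 2 to 5 (different rhythm), 4 to 5 (food time) and 2 to 4 (mean level). Without NRF ZT12 replicate 1 or 3 the NRF count was 3. The 2 libraries nearest to the other regimen were left out as a setting chosen after seeing the data, and this gave 5 genes of different rhythm and left the other counts as they were, with Srxn1 gained at ZT4 (adjusted p = 0.00447).

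Mean differences that were not called changed sign: Nfe2l2 and Gclm to 0.02 and Gclc to 0.04 with median-of-ratios, Gclc to 0.03 without mitochondrially encoded genes, 0.01 with voom and 0.02 with ZT0 left out, Gpx3 to -0.06 and Sod2 to -0.02 with ZT12 left out, and Gclc to 0.06 and Gclm to 0.05 with ZT16 left out. Without single libraries or replicates Gclc ranged from -0.03 to 0.01 and Sod2 from -0.02 to 0.04. The cause of these changes was not tested.

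With the replicate number as a block the 9 genes gave 5 calls under NRF, 5 under DRF, 4 in clock time, 5 in food time and 4 in mean level, as without it, and over all genes 3780 differed in rhythm against 3824. At single times 6 genes differed as before, and the Srxn1 call at ZT0 was lost (-0.27, adjusted p = 0.0575 against 0.0489). A DRF and an NRF library of the same number at a ZT did not deviate together (median r = -0.032 over 28 pairs, 1 over 0.1). This cannot exclude a weak pairing, and whether a number marks a batch across ZTs was not tested.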
